A study of Mus musculus with 20 samples.

Results

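Rpl10a knockdown was examined in the light fractions of polysome gradients from E14 cells, a line of pluripotent mouse embryonic stem cells. The comparison was defined by library titles: 2 light libraries with an Rpl10a siRNA were set against 2 with a control siRNA, all from wild-type cells, which makes 4 of the series' 20 libraries, with 8084 listed transcripts. The light pool combined every fraction below the heavy polysomes, that is free ribonucleoproteins, ribosomal subunits, monosomes and polysomes of 2 to 3 ribosomes, while the heavy pool held mRNAs carrying 4 or more. Both siRNA groups were transfected with Lipofectamine 2000 and received 100 µg/ml cycloheximide, an elongation inhibitor, for 1 min before harvest. A single siRNA targeted Rpl10a, so effects of that siRNA on other mRNAs and effects of the knockdown cannot be told apart. The sources used here do not state the time from transfection to harvest. The sample labels call the RNA rRNA-depleted and also name a stranded mRNA library kit, and the libraries were read as pairs of 75 bp. The remaining libraries used below were 4 from the heavy pools of the same siRNA groups and 12 of ribosome footprints (Ribo-Seq), from lines with an epitope tag on 1 allele of Rpl10a, Rps25 or Rpl22, as all ribosomes (total) or as ribosomes captured through the tag.

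RPL10A is a protein of the large ribosomal subunit and forms part of the L1 stalk, the flexible arm beside which spent tRNA leaves the ribosome. In a sucrose gradient an mRNA sediments further the more ribosomes it carries. The light pool therefore holds mRNAs that are untranslated or carry few ribosomes, among them short ones, and the heavy pool those that carry 4 or more. Loss of a ribosomal protein can alter the supply of large subunits and with it how ribosomes are spread over mRNAs.

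The values in the light pool were deposited under the header RPM, which stands for reads scaled by library size and not by transcript length. Read in that way, they compare libraries and not transcripts of unequal length. The median transcript stood at 45.8 and 45.7 in the control libraries and at 46.1 and 46.8 in the Rpl10a siRNA libraries. Replicates correlated across transcripts with Pearson r = 0.987 for control and 0.983 for Rpl10a siRNA on log2 values, and shared 0.866% and 0.829% identical values. Transcripts carry UCSC identifiers that the files do not pair with gene names, and 0 matched the reference tables used here. The extent of the knockdown, markers of embryonic stem cells and gene groups by function were therefore not analysed here. In a bulk pool, less of an mRNA in the cell, its movement to another fraction and a loss of the cells that hold it cannot be told apart.

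In the light fractions the knockdown came with many modest falls and fewer but larger rises. Of 8084 transcripts, 203 rose (2.51%) and 292 fell (3.61%) at an adjusted p below 0.05 (limma on log2(RPM + 1), Benjamini-Hochberg). The risers had a median log2 change of 0.76, with the middle 50% between 0.61 and 1.05 and a highest value of 3.33. The fallers had a median of −0.69, with the middle 50% between −0.81 and −0.60 and a lowest value of −1.16. Above a 2-fold change there were 86 transcripts on the higher side, 60 of them called, and 19 on the lower side, 8 of them called. The median over all transcripts was 0.02 with an SD of 0.37, and the median SE of a change was 0.16.

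**Figure D1:**
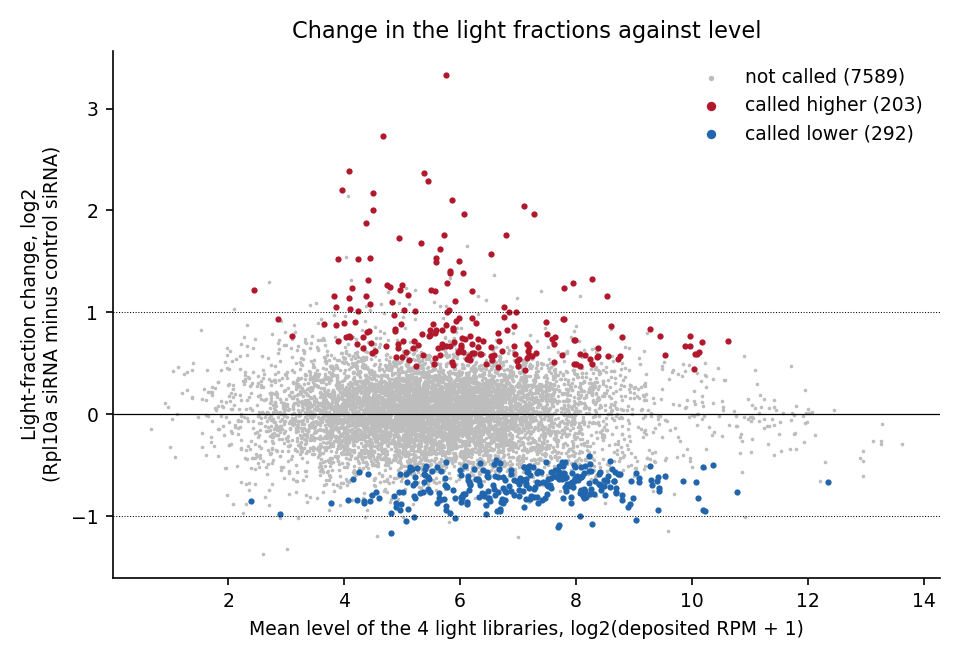
Change in the light fractions (Rpl10a siRNA minus control siRNA, log2) of 8084 transcripts against their mean level in the 4 light libraries, log2(deposited RPM + 1); red points were called higher (203), blue points lower (292) and dotted lines mark 2-fold changes. The red points reach 3.33, while the blue points end at −1.16 and lie further to the right.

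Fallers had the higher median RPM in the light pool. Their median level was 176.8 and 164.8 in the 2 control light libraries and 112.0 and 102.5 in the 2 Rpl10a siRNA libraries, against 45.8, 45.7, 46.1 and 46.8 for all transcripts. Risers had median levels of 41.2 and 42.4 in control and 70.1 and 90.0 in Rpl10a siRNA light libraries. In the heavy pool the same fallers had medians of 65.9 and 69.7 in the control libraries, so they made up a larger part of the light than of the heavy libraries, whereas risers had heavy control medians of 56.1 and 53.8. By their header the values are scaled within each library, so levels in the 2 pools are relative to their library and not amounts of RNA. These levels include the control light libraries from which the changes were computed. They are also not scaled by transcript length, unlike the RPKM of the footprint libraries, which combines mRNA abundance with ribosome load. Median total footprints in the Rpl10a line were 25.45 RPKM for fallers, 40.5 for risers and 25.0 for all transcripts. In the same order they were 26.7, 43.0 and 26.0 in the Rps25 line, and 23.8, 38.7 and 27.4 in the Rpl22 line.

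Which direction held more calls depended on the scaling and on the libraries and terms in the fit. The deposited values favoured falls, with 41.0% of the calls higher, whereas scaling each library to the same total gave 356 higher and 241 lower, or 59.6% higher. That scaling moved the median change from 0.02 to 0.07. Aligned library medians gave 159 higher and 296 lower. With the deposited scaling, rises also outnumbered falls in the absence of Rpl10a light library 1, at 51 and 39, and, by a narrow margin, in a fit of the 4 light libraries with the replicate number as a block, at 1519 and 1499.

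Each named transcript was called, stood at or above the median level of the light pool and had groups that did not overlap, a property of 32.5% of all transcripts on the higher side and 29.0% on the lower side. Among the 128 risers and 242 fallers with these properties, the 2 with the largest change on each side are described by identifier. The level was the mean of all 4 light libraries, with a median over transcripts of 46.45 RPM, and both named risers reached it only through the Rpl10a siRNA libraries, so their rise itself carried them past that filter. The transcript with the largest rise of all 8084 was uc007bqz.2. It stood at 7.2 and 9.7 RPM in the control light libraries and at 68.8 and 126.5 in the Rpl10a siRNA light libraries. The mean went from 8.45 ± 1.77 to 97.7 ± 40.8 (SD, n = 2 each), an 11.6-fold difference of means and a log2 change of 3.33 with the pseudocount (SE 0.37, limma adjusted p = 0.0277). The heavy pool moved alike for uc007bqz.2, from 5.1 and 7.4 to 41.9 and 83.2 RPM, a log2 change of 3.07 (limma adjusted p = 0.00207), and the light and heavy changes differed by 0.26 (SE 0.52, limma adjusted p = 0.757). Both Rpl10a siRNA libraries of each pool lay above both control libraries, and in both pools the second Rpl10a library was the higher one.

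The second riser, uc007rvs.2, stood at 16.1 and 24.5 RPM in control light libraries and at 64.3 and 122.5 with Rpl10a siRNA. The mean went from 20.3 ± 5.94 to 93.4 ± 41.2 RPM (SD, n = 2 each). Its log2 change was 2.10 (SE 0.36, limma adjusted p = 0.0336), the ninth largest of all transcripts. In the heavy pool uc007rvs.2 went from 12.4 and 18.9 to 114.9 and 188.7 RPM, a log2 change of 3.18 (limma adjusted p = 0.00184). The difference between its light and heavy changes, −1.08, had an SE of 0.51 and was not called (limma adjusted p = 0.191). With control siRNA uc007rvs.2 had the higher RPM in the light pool, and with Rpl10a siRNA in the heavy pool.

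On the falling side, uc009amb.2 stood at 246.4 and 314.6 RPM in control light libraries and at 134.3 and 123.5 with Rpl10a siRNA. It fell by 1.11 on the log2 scale (SE 0.14, limma adjusted p = 0.0277), from a mean of 281 ± 48.2 to 129 ± 7.64 RPM (SD, n = 2 each). Its heavy values were 122.1 and 115.0 RPM in control and 99.7 and 87.8 in Rpl10a siRNA libraries, a log2 change of −0.34 that was not called (limma adjusted p = 0.0781). The light and heavy changes of uc009amb.2 differed by −0.77 (SE 0.20, limma adjusted p = 0.0577), just outside the threshold. The groups did not overlap in either pool, but they lay further apart in the light one.

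The other named faller, uc007yka.1, stood at 293.2 and 273.9 RPM in control light libraries and at 146.1 and 120.4 with Rpl10a siRNA. It fell by 1.09 on the log2 scale (SE 0.13, limma adjusted p = 0.0277). In the heavy pool it also fell, by 0.83, from 58.8 and 66.9 to 34.7 and 34.8 RPM (limma adjusted p = 0.00349). This transcript thus declined in both pools and kept the higher RPM in the light one, and the difference between its changes was −0.26 (SE 0.19, limma adjusted p = 0.377).

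**Figure D2:**
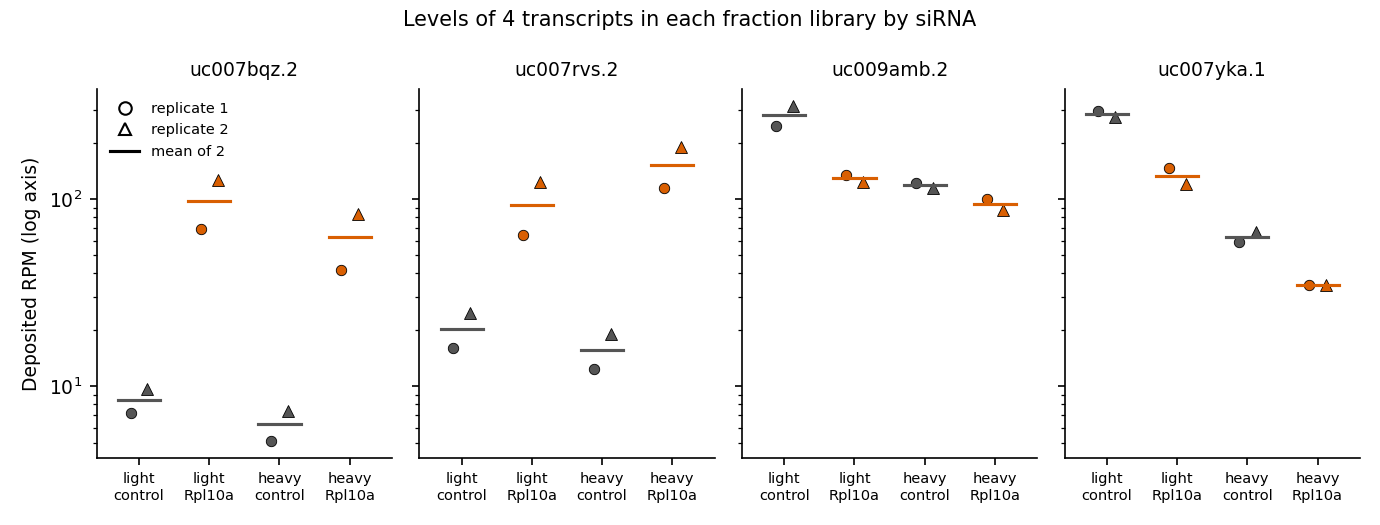
Deposited RPM (log axis) of the 4 named transcripts in the light and heavy libraries of each siRNA; circles are replicate 1, triangles replicate 2 and bars the mean of the 2. In all 4 panels the light Rpl10a values lie clear of the light control values, from 7.2 to 126.5 RPM for uc007bqz.2 and from 314.6 to 123.5 RPM for uc009amb.2 at the extremes.

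The footprint libraries share no sample with these pools and come from cells with no siRNA. Their RPKM values combine the abundance of an mRNA with its ribosome load, which cannot be told apart here. Total footprints of uc007bqz.2 were 10.8 and 12.7 RPKM in the Rpl10a line, 9.3 and 9.4 in the Rps25 line and 4.8 in both total libraries of the Rpl22 line. For uc007rvs.2 they were 16.4 and 21.1, 20.0 and 22.2, and 7.6 and 6.7 RPKM in the same order. Footprints of uc009amb.2 ran from 84.6 to 128.9 RPKM over the 6 total libraries, and those of uc007yka.1 from 8.2 to 19.5. None of the 4 was called in a capture. The highest capture ratio among them was that of uc007bqz.2 on RPS25 ribosomes, from 9.3 and 9.4 RPKM in total to 28.9 and 22.9 in captured ribosomes, a log2 ratio of 1.37 (limma adjusted p = 0.0932).

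The second Rpl10a siRNA light library lay further from the controls than the first. Its ratio to the second control library had an SD of 0.43 across transcripts, with 153 transcripts above 2-fold and 64 below, while the ratio of the first Rpl10a library to the first control library had an SD of 0.34, with 46 above and 1 below. With the numbers crossed, the SD was 0.51 for the second and 0.38 for the first Rpl10a library. Of the 203 risers, 184 were higher in the second than in the first Rpl10a library (90.6%), against 52.7% of all transcripts. Of the 292 fallers, 67 were higher in it (22.9%). In the control libraries the second was the higher one for 53.2% of risers and 37.0% of fallers. The cause of this difference was not tested. Ratios formed with the same numbers (1 over 1 and 2 over 2) correlated across transcripts with r = 0.81 and crossed ones (1 over 2 and 2 over 1) with r = 0.34, without a library in common within a pair of ratios.

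**Figure D3:**
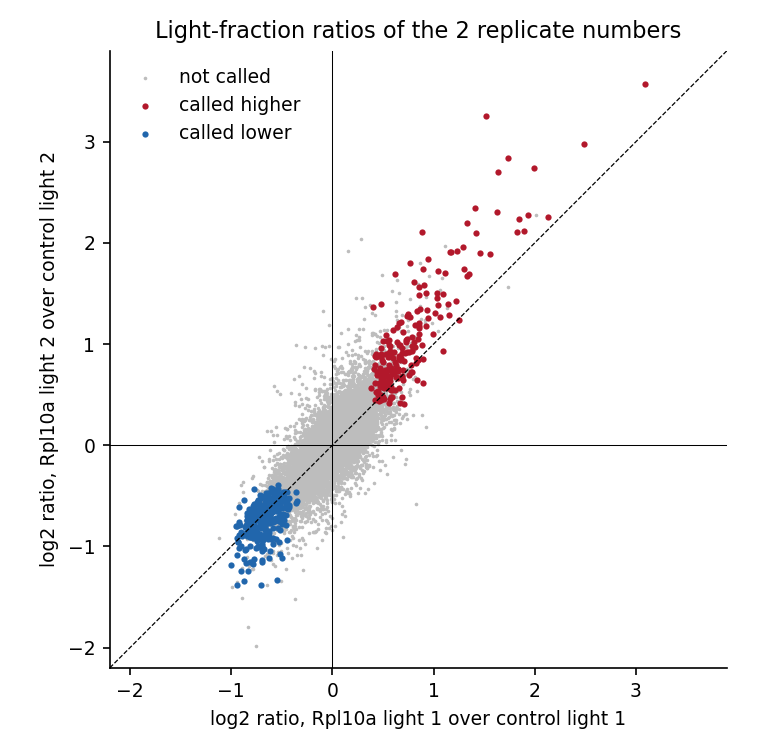
Log2 ratio of Rpl10a to control light library for replicate number 2 (vertical) against number 1 (horizontal), with log2(RPM + 1) values of 8084 transcripts; red and blue points were called higher and lower, and the dashed line marks equal ratios. Most red points lie above the dashed line, as the second Rpl10a library was higher than the first for 184 of the 203.

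Changes in the light pool were smaller than those in the heavy pool and only partly parallel to them. The SD across transcripts was 0.37 in the light and 0.56 in the heavy pool. The SE is equal in both by construction, as the fit shares 1 spread per transcript among all groups. Between replicates, the SD of the log2 difference was 0.27 for control and 0.31 for Rpl10a siRNA in the light pool. In the heavy pool it was 0.30 and 0.39. In heavy polysomes 26.8% of transcripts were called higher (2164) and 22.7% lower (1836), which became 2454 and 1243 with equal library totals and 1687 and 2473 with aligned medians. These scalings moved the median heavy change from 0.01 to 0.12 and −0.12. The 2 changes correlated across 8084 transcripts with r = 0.52. They share no library, but pools of a given siRNA and number may come from the same gradient, and r was 0.46 and 0.56 with same-numbered libraries and 0.54 and 0.37 with the numbers of the light and heavy pools crossed. Leaving out single libraries moved r to between 0.41 and 0.59.

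The groups that moved alike in both pools made up most of the light calls. Of the 203 risers, 113 were also called higher in heavy polysomes (55.7% of the light list, 5.22% of the heavy list), with a median log2 change of 0.84 in the light and 1.27 in the heavy pool. Of the 292 fallers, 212 were also called lower there (72.6% of the light list, 11.5% of the heavy list), with medians of −0.68 and −0.55. A further 64 risers and 77 fallers were not called in the heavy pool, where their median changes were 0.05 and −0.26. Over the whole table, 26.8% of transcripts were called higher and 22.7% lower in the heavy pool, and 4084 of 8084 were not called. The pools thus shared direction for most light calls, 147 of 203 risers being above 0 and 277 of 292 fallers below 0 in heavy polysomes. Of all 8084 transcripts, 4095 were above 0 and 3989 below 0 there.

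A test of the difference between pools separated transcripts that the light pool gained relative to the heavy pool. By limma at the same threshold, the light change exceeded the heavy change in 289 transcripts (3.57%) and was the lower of the pair in 231 (2.86%). In the first group the median change was 0.34 in the light and −0.63 in the heavy pool, and in the second −0.03 and 0.85. These medians come from the same values that chose the groups. Light calls held 46 of the 289, all risers, and 20 of the 231, of which 8 rose and 12 fell. Over all 8084 transcripts, 2.51% rose and 3.61% fell in the light pool. Most transcripts with a called difference had no called change in the light pool itself, like most of the whole table. The light change is part of the difference, so the number of risers among the 289 partly follows from that choice. With aligned library medians the split became 412 above and 112 below. No difference was called without a variance trend (limma, 2443 at an unadjusted p below 0.05), and none when a single library was left out, unless it was Rpl10a heavy library 2, in whose absence 869 lay above and 1201 below.

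**Figure D4:**
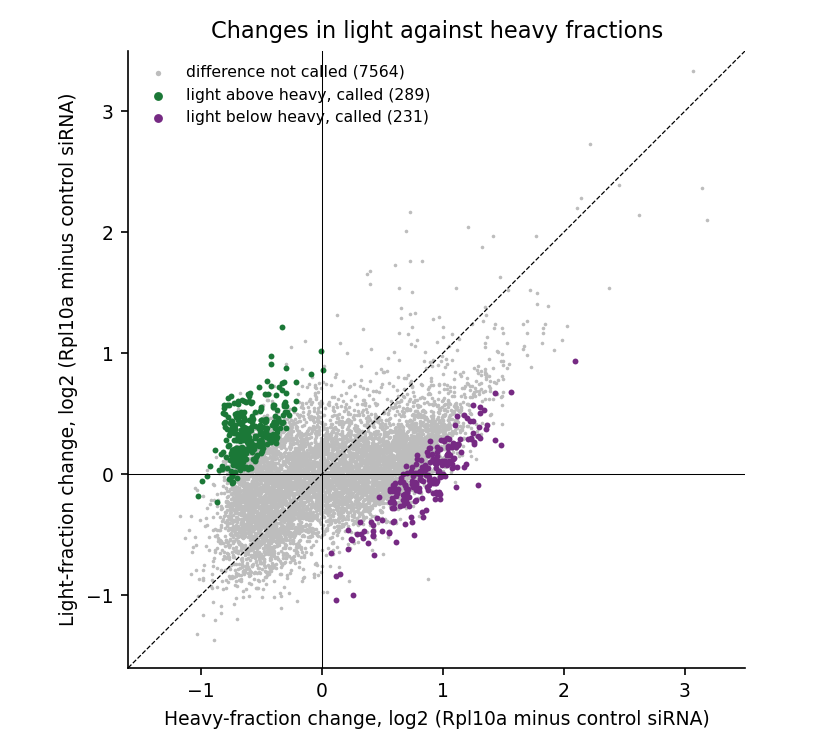
Change in light fractions (vertical) against change in heavy fractions (horizontal), both Rpl10a siRNA minus control siRNA on the log2 scale, for 8084 transcripts; green points had a called light change above the heavy change (289), violet points below it (231), and the dashed line marks equal changes. The green points centre on 0.34 in light and −0.63 in heavy fractions, the violet points on −0.03 and 0.85.

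Transcripts that rose in the light and fell in the heavy pool were few and had high RPM and footprint levels. There were 26 of them, or 12.8% of the risers, against 22.7% of all transcripts called lower in the heavy pool. The reverse held for 3, or 1.03% of the fallers, against 26.8% of all transcripts called higher there. The median level of the 26 was 221.1 and 198.6 RPM in control light libraries and 308.6 and 335.5 with Rpl10a siRNA, while in the heavy pool it went from 637.4 and 606.1 to 398.1 and 428.6. Their light change ranged from 0.44 to 0.77, and all 26 had a called difference between pools. In the independent footprint libraries their median footprint level was 602, 644 and 549 RPKM in the total libraries of the Rpl10a, Rps25 and Rpl22 lines, against 25.0, 26.0 and 27.4 for all transcripts. The 113 transcripts that rose in both pools had footprint medians of 27.8, 29.0 and 26.0 RPKM in the same lines. High footprints were not particular to the 26. The 289 transcripts with a called light change above the heavy change, which include all 26, had medians of 196, 196 and 183 RPKM. The 3 reverse cases had light medians of 506.4 and 469.0 RPM in control and 342.7 and 314.4 in Rpl10a siRNA libraries.

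Across all transcripts, the light change tended slightly upward with footprint level and with mean RPM in the heavy libraries. The heavy change tended downward with both. Transcripts were split into 5 equal groups by their total footprints in the Rpl10a line, a measure from other samples. From the lowest to the highest group, the median light change was −0.02, −0.02, 0.00, 0.05 and 0.06. The median heavy change ran the other way, at 0.10, 0.09, 0.05, −0.01 and −0.26. The median light level also rose over these groups, from 16.7 to 173 RPM. Split instead by mean RPM in the 4 heavy libraries, which the heavy change itself uses, the lowest and highest groups had median light changes of −0.04 and 0.06 and median heavy changes of 0.16 and −0.28. No split by light level was made, and the 100 transcripts with the highest mean light level had a median light change of −0.07. The parts of RNA level and ribosome load in these trends were not tested. By footprint level, risers made up 1.67% of the lowest and 3.96% of the highest group, and fallers 3.40% and 3.46%. The footprints of the Rps25 and Rpl22 lines gave light medians of −0.03 and −0.05 in the lowest and 0.07 in both highest groups. The gap of 0.08 between the outer groups kept its sign without each light library, between 0.08 and 0.10, but it is small beside the SE of a single transcript. The other scalings shift all transcripts of a library alike or nearly so, and therefore could not test this gap. The excess of risers in the highest group turned without a variance trend, with 26 in the lowest and 19 in the highest, and without the first Rpl10a light library, with 11 and 5.

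The light change was next set against the 3 ribosome captures, because the study set out to find mRNAs translated by ribosomes that hold RPL10A or RPS25. Of the 8505 transcripts of the Rpl10a line, 72 were over-represented (0.847%) and 52 under-represented (0.611%) on captured RPL10A ribosomes (limma, adjusted p below 0.05), and 66 and 41 of them were measured in the light pool. The 66 had a median light change of 0.14 with 41 above 0, and 3 rose and 3 fell. The 41 had a median of −0.11 with 22 below 0, and 0 rose and 3 fell (limma). Of all 8084 transcripts, 4214 had a light change above 0 and 3870 below 0. Beside 2.51% and 3.61% in the whole table, counts of 0 to 3 are too small to set the lists apart. The median of the 66 exceeded that of all transcripts by 0.12, or by 0.06 without the first Rpl10a light library. The median of the 41 lay 0.12 below that of all transcripts but 0.063 above it without the first control light library and 0.027 above it without the second Rpl10a light library.

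Over the whole range of capture ratios, fallers were more frequent among transcripts with low RPL10A and RPS25 ratios and among those with high RPL22 ratios. In the lowest group of 5 by RPL10A ratio, 91 of 1617 fell (5.63%) against 44 of 1617 in the highest (2.72%). By RPS25 ratio the counts were 94 of 1541 (6.10%) and 47 of 1541 (3.05%). By RPL22 ratio they ran the other way, with 31 of 1498 in the lowest (2.07%) and 93 of 1498 in the highest (6.21%). Risers differed less by RPL10A ratio, 41 against 36, and by RPL22 ratio, 43 against 36, but were 22 in the lowest and 52 in the highest RPS25 group. The order of the outer groups for fallers was the same in each fit that called any transcript, down to 18 and 4 by RPL10A, 13 and 7 by RPS25, and 7 and 11 by RPL22 ratio without the first Rpl10a light library.

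The shift of the medians behind these counts was small. The median light change of the highest minus the lowest group was 0.06 for RPL10A, 0.10 for RPS25 and −0.12 for RPL22 ratios, and Pearson r across transcripts was 0.06, 0.11 and −0.10 (8084, 7704 and 7489 transcripts). The gap for RPL10A was 0.04 without the first control or the second Rpl10a light library. The gap for RPS25 was 0.05 without the second control light library or the first Rpl10a light library, and that for RPL22 was −0.07 without either of these. Median light levels in the outer groups were 41.9 and 36.2 RPM for RPL10A, 48.8 and 36.5 for RPS25, and 45.2 and 54.0 for RPL22. The part of level in the counts was not tested. The labels of the Rpl22 line list the capture antibody for its total libraries as well as for its captured ones.

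**Figure D5:**
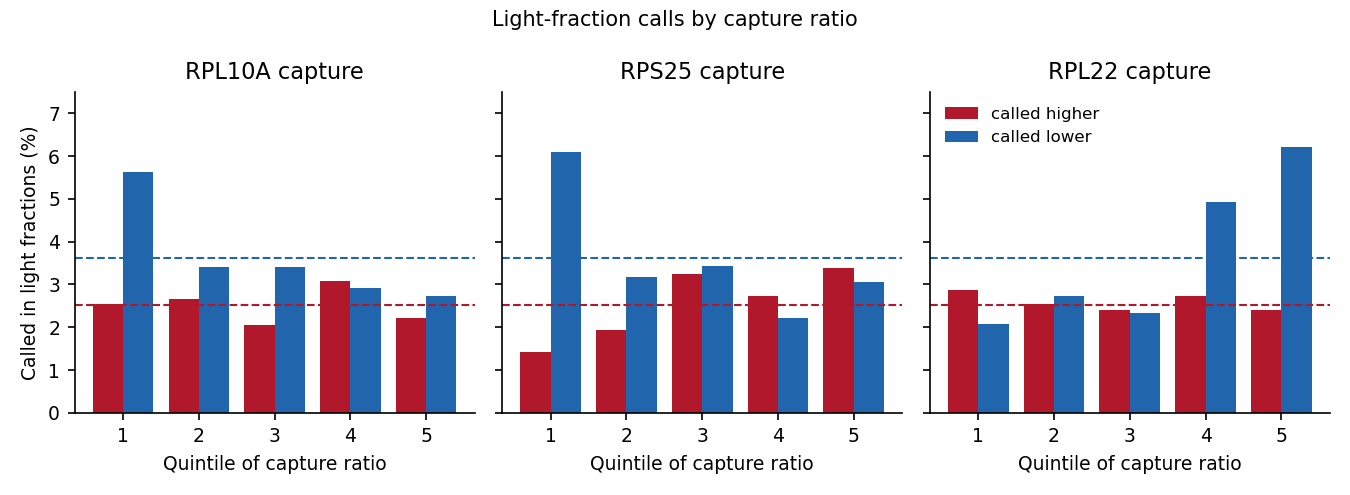
Percentage of transcripts called higher (red) or lower (blue) in the light fractions, by group of 5 from the lowest (1) to the highest (5) capture ratio in each line; dashed lines mark 2.51% and 3.61%, the percentages over all transcripts. Blue bars stand highest at 5.63% and 6.10% in the lowest RPL10A and RPS25 groups and at 6.21% in the highest RPL22 group.

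The number of light calls rested on few libraries. A fit of the 4 light libraries alone called 304 higher (3.76%) and 445 lower (5.50%), including 188 of the 203 risers and 270 of the 292 fallers. Calls went to 0 when any of the 4 control libraries or Rpl10a light library 2 was left out (limma), and likewise in a limma test against a 1.5-fold change, whereas 90 were called in the absence of Rpl10a light library 1, and 987 or 978 in the absence of Rpl10a heavy library 1 or 2. With all 8 libraries 2087 transcripts had an unadjusted p below 0.05, with single libraries left out between 1036 and 2475, and in the 1.5-fold test 107. A heavy library enters the light test only through the spread shared by the groups, so leaving such a library out kept every light log2 change. With single light libraries left out, the log2 changes ran from 2.90 to 3.77 for uc007bqz.2 and from 1.64 to 2.56 for uc007rvs.2. Those of the fallers ran from −1.28 to −0.93 for uc009amb.2 and from −1.23 to −0.95 for uc007yka.1. The 4 named transcripts were chosen with groups that did not overlap, so leaving out 1 library could not turn their direction.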

How the data were processed

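RNA-seq of light and heavy gradient pools gave 8 libraries, with Ribo-Seq from 12 others. The deposited RNA-seq values, headed RPM, are treated as a scaled signal, as the authors' library totals ran from 943663.9 to 1067209.0. The Ribo-Seq values are RPKM per the file headers. The submitters' processing notes name cutadapt, Bowtie2, STAR and mm10. The sources used here give no versions or transcript filters. Values rounded to 1 decimal did not yield whole reads, so depth is unknown and no interval is given.

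Log2(value + 1) was fitted with limma 3.58.1 (R 4.3.3, variance trend, two-sided tests, Benjamini-Hochberg over all transcripts, called below 0.05), with 4 group means over the 8 RNA-seq libraries and 1 fit per capture line. The fit was run on simulated libraries with independent noise and equal spread in all groups. Real same-numbered libraries deviated together, so that run does not check the calls made here. No label ties a replicate to its own culture, so p-values reflect the spread among these samples alone, and that spread may be technical. Members, rules and lists were chosen with earlier results of these data known. Named transcripts were the 2 largest changes per direction among called, non-overlapping transcripts at or above the median light level. Gene lists could not be used without gene names. Pseudocount, filter, scaling, variance trend, threshold, fit and libraries were varied.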

Additional observations from a re-analysis of the deposited data

Results flagged for a closer look

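The response to Rpl10a siRNA differed between the fractions in 520 transcripts (limma test of the light change minus the heavy change, adjusted p below 0.05), 289 with the light change above the heavy change and 231 with it below. All but 1 of the 289 had a heavy change below 0, and 278 had a light change above 0. All 231 had a heavy change above 0, and their light changes fell on both sides, 107 above and 124 below 0. Of all 8084 transcripts, 4095 had a heavy change above 0 and 3989 below 0, and 4214 had a light change above 0 and 3870 below 0. Both groups were chosen by the difference of these same changes, so their signs partly follow from that choice. None of the 520 was called without a variance trend. The cause of the difference between the fractions was not tested.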

How the results depend on the processing

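For the light fractions, 260 transcripts were called without a variance trend, 0 in the 1.5-fold test and 749 with the light libraries alone. Leaving out single libraries gave 0 to 987, and 0 in each case with the light libraries alone (chosen after seeing the data). With the replicate number as a block, 1912 were called, 910 higher and 1002 lower, or 3018 with the light libraries alone. Same-numbered deviations correlated with r = 0.61 between the light groups and 0.40 to 0.62 between other groups, but 2 numbers per group are too few to take them as pairs. The light-heavy difference gave 0 without a trend and in the 1.5-fold test, 2520 with the replicate block and 0 to 2070 without single libraries. Heavy calls (alternatives chosen after seeing the data) numbered 14 in the 1.5-fold test and 1500 to 4258 without single libraries. The gap between transcripts under-represented in the RPL10A capture and all transcripts ran from −0.108 to 0.063 without single light libraries, and reversed to 0.063 without control library 1 and to 0.027 without Rpl10a library 2. Other pseudocounts, the level filter and other scalings kept total counts within 1.5 times, but not each direction: equal totals raised light rises from 203 to 356, and aligned medians took differences below 0 from 231 to 112. Causes were not tested. With a library left out, its lone partner is assumed to vary like the other groups. Changes of scaling or libraries for the groups of 5 and for the light-heavy correlation were also chosen after seeing the data. Depth is unknown.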

Other observations

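The transcripts with the highest RPM took a smaller share of the light pool after knockdown. The 10 highest transcripts of each library held 9.76% and 9.67% of the deposited signal in the control light libraries and 7.80% and 8.44% in the Rpl10a siRNA light libraries. The 100 highest held 32.2% and 32.2% in the control and 29.3% and 31.2% in the Rpl10a siRNA light libraries. The groups did not overlap for the 10 or the 100 highest, and neither difference was tested. Of the 10 transcripts with the highest mean light level, 9 had a change below 0, with a median of −0.29, and 0 were called (limma). Of the 100 highest by mean light level, 63 had a change below 0, with a median of −0.07, and 1 rose and 4 fell. Beside 2.51% and 3.61% in the whole table, these counts are too small to set the highest transcripts apart. Over all 8084 transcripts, 3870 had a light change below 0. In the heavy pool the 10 highest held 4.36% and 4.54% with control and 4.54% and 5.36% with Rpl10a siRNA, while the 100 highest held 26.4% and 27.7% with control and 21.8% and 25.0% with Rpl10a siRNA.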
